A study of Mus musculus with 9 samples.

Results

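The genes described here were 10 genes through which goblet cells make and shape intestinal mucus: Muc2, Fcgbp, Clca1, Zg16, Tff3, Agr2, Spink4, Muc13, Galnt12 and Bcas1. They were chosen by name, as the rows of the count table whose mouse Ensembl identifier belongs to one of these symbols, and all 10 were found among its 29288 genes. The libraries were made from small intestinal epithelial cells of female wild-type C57BL/6J mice, and each of the 9 libraries came from 1 mouse. Mice were 7 to 10 weeks old and received 2 µg of α-galactosylceramide (αGal), a glycolipid antigen that CD1d presents to natural killer T (NKT) cells, or PBS, by intraperitoneal injection. The 3 groups of 3 mice were PBS at 18 h (control), αGal at 18 h (18h-αGal) and αGal at 72 h (72h-αGal), and since the controls were taken at 18 h only, the later treatment and the later sampling time cannot be told apart. Crypt cells of the proximal small intestine were sorted as live EpCAM+ CD45- CD31- Ter119- cells, so the goblet cells were measured together with every other epithelial cell of the crypt.

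Goblet cells are secretory cells of the intestinal epithelium that arise from crypt stem cells under Atoh1 and, later, Spdef. They fold, cross-link and heavily O-glycosylate gel-forming mucin, pack it into granules and release it with other proteins as the mucus that keeps bacteria away from the epithelium. In the small intestine this mucus is loose and is renewed from goblet cells in crypt and villus. The comparisons ask whether the expression of these genes in crypt epithelium differed after NKT cells had been activated in vivo.

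The promoters of 3 of these genes are printed because Muc2 and Fcgbp moved together from mouse to mouse, while Agr2 followed another course and was the only member that passed the test in any comparison. RefSeq promoters (table build GRCm38.p6, 250 bases before to 50 bases after the start) were found for 4 of the 10 genes, Muc2, Fcgbp, Agr2 and Muc13. Only the 250 bases before the start are shown, 5′ to 3′ on the strand of the gene, each of which had exactly 1 match in GRCm39: chr7:141276333-141276582 (+) for Muc2, chr7:27770411-27770660 (+) for Fcgbp and chr12:36042674-36042923 (+) for Agr2. Capitals mark matches on either strand to one of the 8 motifs named after the sequences.
Muc2: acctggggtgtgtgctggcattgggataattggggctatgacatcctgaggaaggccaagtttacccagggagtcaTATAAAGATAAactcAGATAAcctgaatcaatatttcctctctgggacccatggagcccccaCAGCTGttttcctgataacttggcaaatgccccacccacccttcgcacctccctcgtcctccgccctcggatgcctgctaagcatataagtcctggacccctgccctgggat
Fcgbp: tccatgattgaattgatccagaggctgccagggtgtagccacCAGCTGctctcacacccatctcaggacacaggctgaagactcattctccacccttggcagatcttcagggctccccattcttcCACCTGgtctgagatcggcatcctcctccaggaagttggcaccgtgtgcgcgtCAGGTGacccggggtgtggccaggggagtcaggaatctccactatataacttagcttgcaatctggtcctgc
Agr2: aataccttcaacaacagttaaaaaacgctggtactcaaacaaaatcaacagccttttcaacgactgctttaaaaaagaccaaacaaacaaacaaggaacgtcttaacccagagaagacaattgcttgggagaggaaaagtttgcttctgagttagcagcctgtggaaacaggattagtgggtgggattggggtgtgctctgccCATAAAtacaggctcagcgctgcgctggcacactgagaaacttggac

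The motifs were searched on both strands of the full 300 bases, and positions count from 1 at the first transcribed base, with -1 just before it, as RefSeq places that base. For Agr2 GENCODE places the start of the gene upstream of the RefSeq start, so the last printed bases lie within the gene as given below. The Muc2 promoter held the TATA box letters TATAAA at -174, which share 1 base with the first of its 2 GATA matches (AGATAA, at -169 and -159), and an E-box (CAGNTG) at -112. TATAAA occurred in 13.6%, AGATAA in 11.2% and CAGNTG in 51.4% of the 32851 RefSeq promoters of this length. The Fcgbp promoter held 4 E-boxes, at -208, -125, -72 and 15, the last of which lies past the printed bases. The Agr2 promoter held none of these letters, and its only match was the CDX motif TTTATG on the opposite strand at -47, a motif present in 11.9% of promoters. The FOXA motif TNTTTAC (12.4% of promoters), the interferon-stimulated response element (3.44%), the STAT motif TTCNNNGAA (8.3%) and the unfolded protein response motif TGACGTG (2.01%) were not in any of the 3 windows. One of the Muc13 promoters in the table held TTCNNNGAA at -140.

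Library totals ran from 8887861 counts (control replicate 3) to 32722293 (control replicate 1), and values below are normalised counts, that is, raw counts divided by the authors' size factor for the library. Mitochondrial genes held 7.95% to 11.7% of the counts. Epcam was present at 16279 to 22719 normalised counts in the 9 libraries, against 4.4 to 57.9 for the leukocyte gene Ptprc and 12.6 to 47.5 for the endothelial gene Pecam1. Summed over each list, epithelial markers held 84560 to 120474, leukocyte markers 371 to 829 and stromal and endothelial markers 14.4 to 79.7 normalised counts. On the second principal component of the most variable genes among those tested, control replicate 3 stood apart at -46.2, with the other 8 libraries between 0.0105 and 14.6. The markers of absorptive enterocytes were also highest in that library, with a summed level of 349443 against 86821 to 288705 elsewhere.

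The 10 genes together took 1.25% to 1.41% of all counts in the 3 controls. Their share was 1.87%, 0.785% and 0.692% in the 18h-αGal replicates 1, 2 and 3, and 1.40%, 2.06% and 1.21% in the 72h-αGal replicates. The control mice were alike, whereas the αGal groups held both the highest and the lowest libraries, 72h-αGal replicate 2 and 18h-αGal replicate 3. Muc2 and Fcgbp alone made up 71.4% to 84.6% of the members' counts in each library. In bulk libraries fewer goblet cells and less RNA per goblet cell cannot be told apart.

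To compare levels between genes, normalised counts were divided by the kilobases of annotated exon. In controls Fcgbp stood highest at 13337 ± 1613 normalised counts per kb (SD, n = 3), followed by Muc13 at 7382 ± 2543 and Tff3 at 6481 ± 697. Spink4 came next at 6193 ± 1069 and Muc2 at 4889 ± 647, ahead of Zg16 at 3333 ± 1355, Clca1 at 2885 ± 545 and Agr2 at 1651 ± 294. Galnt12 (179 ± 45.9) and Bcas1 (34.0 ± 7.70) lay far below. Neighbours in this order did not overlap between the 3 controls for Fcgbp over Muc13, Clca1 over Agr2, Agr2 over Galnt12 and Galnt12 over Bcas1. The ranges of the remaining 5 neighbouring pairs, from Muc13 down to Clca1, overlapped. Within each mouse, however, Muc2 stood above Zg16 in 9 of 9 libraries, whereas the other 4 of these pairs had the same order in 4 to 6 of the 9. Dividing by the longest transcript instead moved Zg16 ahead of Muc2, against the order on the exon scale, and Spink4 ahead of Tff3.

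**Figure D1:**
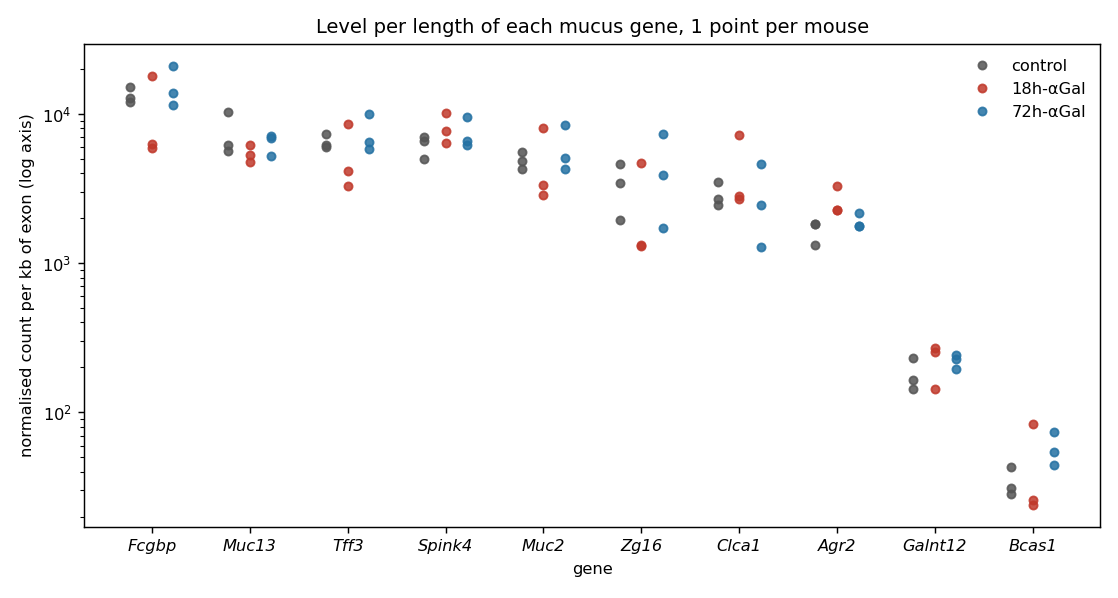
Normalised counts per kilobase of exon (log axis) of the 10 mucus genes, with 1 point per mouse coloured by group and genes ordered by their control mean. Fcgbp leads at 13337 in controls and Bcas1 closes at 34.0, and the points of Muc13, Tff3, Spink4, Muc2, Zg16 and Clca1 run into each other.

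Muc2 (ENSMUSG00000025515, chr7:141276583-141308430, + strand, coordinates here and below in GRCm39) encodes the secreted gel-forming mucin that is the scaffold of intestinal mucus. Its normalised counts were 67119, 59529 and 77453 in control replicates 1 to 3, 111732, 46096 and 39514 in the 18h-αGal replicates, and 70759, 117495 and 59629 in the 72h-αGal replicates. The 18h-αGal mice thus lay on both sides of the controls, with replicate 1 above all of them and replicates 2 and 3 below all of them, and 72h-αGal replicate 2 was the highest of the 9 libraries. Group means were 68034 ± 8997 (SD, n = 3) in controls, 65781 ± 39931 at 18 h and 82628 ± 30705 at 72 h, so the difference between the means was much smaller than the spread within the αGal groups.

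Fcgbp (ENSMUSG00000047730, chr7:27770661-27820287, +) encodes a large mucus protein that joins the mucin network. Controls held 134589, 126431 and 158979 normalised counts, 18h-αGal mice 186752, 66219 and 62391, and 72h-αGal mice 145130, 219519 and 120583. It had the mouse-to-mouse order of Muc2 in its extremes, high in 18h-αGal replicate 1 and 72h-αGal replicate 2 and low in 18h-αGal replicates 2 and 3. Of its 50-base words 6.56% also occurred in other genes, mostly Fcgbpl1, which itself had at most 62.8 normalised counts in any library.

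Tff3 (ENSMUSG00000024029, chr17:31344280-31348620, -) encodes the intestinal trefoil factor, a small peptide secreted with mucin. Its normalised counts were 3212, 3070 and 3752 in controls, 4402, 2121 and 1685 in 18h-αGal mice and 3341, 5120 and 2992 in 72h-αGal mice. Again 18h-αGal replicate 1 lay above and replicates 2 and 3 lay below every control.

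Zg16 (ENSMUSG00000049350, chr7:126649302-126686500, -) encodes a lectin-like mucus protein that binds Gram-positive bacteria. Controls held 4837, 2720 and 6531 normalised counts, 18h-αGal mice 6552, 1835 and 1849, and 72h-αGal mice 5495, 10267 and 2414. It varied more than the other members within the control group, with a coefficient of variation (SD over mean) of 40.7%, against 10.8% for Tff3, the least variable.

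Clca1 (ENSMUSG00000028255, chr3:144709578-144738537, -) encodes a secreted metalloprotease that acts on the mucus gel. Its normalised counts were 10174, 9293 and 13218 in controls, 27191, 10191 and 10575 in 18h-αGal mice and 9285, 17302 and 4877 in 72h-αGal mice. Here 18h-αGal replicates 2 and 3 stayed within the range of the controls, and 72h-αGal replicate 3 was the lowest of all.

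Bcas1 (ENSMUSG00000013523, chr2:170188911-170269765, -), best known from myelinating oligodendrocytes and listed among goblet cell markers, was the least abundant member. It had 162, 117 and 107 normalised counts in controls, 314, 91 and 98 in 18h-αGal mice and 206, 278 and 169 in 72h-αGal mice. All 3 of the 72h-αGal mice lay above all 3 controls. Of its exon bases 17.1% are covered on the opposite strand by Bcas1os1 and Bcas1os2, and since the strand setting of the counting is not given in the sources used here, reads of these transcripts cannot be told from its own.

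Agr2 (ENSMUSG00000020581, chr12:36042904-36054086, +) encodes a protein disulfide isomerase of the endoplasmic reticulum that goblet cells need to produce Muc2. Its normalised counts were 2450, 2444 and 1764 in controls, 4423, 3066 and 3024 in 18h-αGal mice and 2367, 2379 and 2916 in 72h-αGal mice. All 18h-αGal mice, including the replicates in which Muc2 and Fcgbp were low, lay above every control and every 72h-αGal mouse.

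Galnt12 (ENSMUSG00000039774, chr4:47091905-47123070, +) encodes a polypeptide N-acetylgalactosaminyltransferase, an enzyme that starts mucin-type O-glycosylation. Controls held 496, 697 and 430 normalised counts, 18h-αGal mice 814, 773 and 433, and 72h-αGal mice 734, 589 and 691. The groups overlapped, with 18h-αGal replicate 3 at the level of the lowest control.

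Spink4 (ENSMUSG00000028415, chr4:40920044-40931396, +) encodes a Kazal-type serine protease inhibitor secreted by goblet cells. Its normalised counts were 4671, 5005 and 3552 in controls, 5444, 7244 and 4566 in 18h-αGal mice and 4384, 4650 and 6783 in 72h-αGal mice. Within each group it was highest in the mouse with the highest summed level of 10 Paneth cell markers, namely control replicate 2 (77929), 18h-αGal replicate 2 (81111) and 72h-αGal replicate 3 (67437), against 18387 to 40501 in the other 6 libraries. None of the 10 Paneth cell markers was at 0 in any library, and their summed level ran from 18387 to 77929 in controls, from 38278 to 81111 at 18 h and from 28425 to 67437 at 72 h. The part of Paneth cells in the values of Spink4 was not tested.

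Muc13 (ENSMUSG00000022824, chr16:33614407-33640304, +) encodes a transmembrane mucin of the apical surface of enterocytes and goblet cells. It had 17079, 18913 and 31284 normalised counts in controls, 16055, 14396 and 18627 in 18h-αGal mice and 21589, 20847 and 15796 in 72h-αGal mice. Its highest value was in control replicate 3, the library with the highest enterocyte markers. None of the 10 enterocyte markers was at 0 in any library, and their summed level ran from 135046 to 349443 in controls, from 177352 to 288705 at 18 h and from 86821 to 172290 at 72 h, and their part in the values of Muc13 was not tested. Of its 3038 exon bases 305 overlap Gm15657 on the opposite strand.

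**Figure D2:**
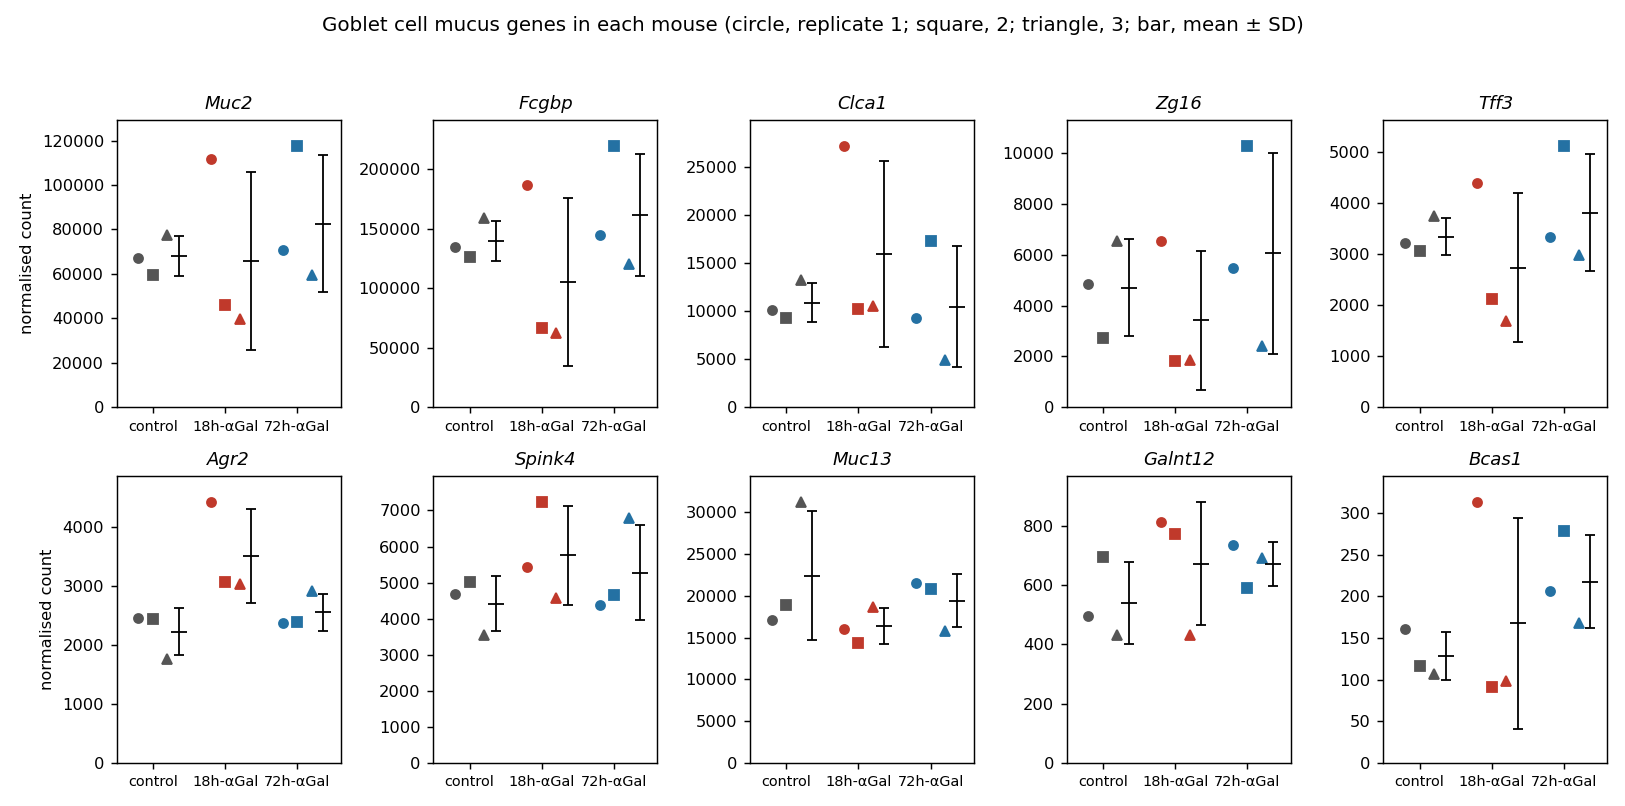
Normalised counts of the 10 mucus genes in each mouse (linear axes from 0), by group, with the mean and SD (n = 3) beside the points. For Muc2, Fcgbp, Tff3, Zg16 and Bcas1 the 18h-αGal circle (replicate 1) sits above all controls and the square and triangle (replicates 2 and 3) below all controls, while all 3 18h-αGal points of Agr2, at 3024 to 4423, lie above its controls at 1764 to 2450.

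The members did not vary as one group. To describe this, log2 normalised counts (+1) were correlated with those of Muc2 over the 9 libraries for each of the other 9 genes, with 2-sided exact permutation tests and Benjamini-Hochberg adjustment over the 9 relations. Tff3 followed Muc2 most closely, with a Pearson r of 0.97 (exact permutation p = 1.10e-05, adjusted p = 4.96e-05) and a Spearman rho of 0.98 (exact permutation p = 4.96e-05, adjusted p = 0.000223). Fcgbp had a Pearson r of 0.95 and a Spearman rho of 0.98 with the same exact permutation p-values. Zg16 had an r of 0.93 (exact permutation p = 2.76e-05, adjusted p = 8.27e-05) and a rho of 0.97 (exact permutation p = 0.000165, adjusted p = 0.000496). Bcas1 had an r of 0.85 (exact permutation p = 0.00504, adjusted p = 0.0113) and a rho of 0.78 (exact permutation p = 0.0172, adjusted p = 0.0388). These 4 genes kept r of 0.96, 0.90, 0.86 and 0.78 without the libraries farthest from the median of Muc2, 18h-αGal replicate 3 and 72h-αGal replicate 2. With the mean of each group removed they had r of 0.99, 0.99, 0.93 and 0.89 over the 9 libraries, a relation among mice of the same group. Both sets of r include 18h-αGal replicate 1, which also lay far from the median of Muc2, and r without it was not computed.

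Clca1 did not pass this test over the 9 libraries (r = 0.66, exact permutation p = 0.0516, adjusted p = 0.0928, and rho = 0.48, exact permutation p = 0.194, adjusted p = 0.349), although its r was 0.94 with the group means removed and 0.74 without the 2 farthest libraries. Agr2, Spink4, Muc13 and Galnt12 had r of 0.01, -0.28, 0.27 and 0.21, with exact permutation adjusted p between 0.617 and 0.973. Their rho were -0.38, -0.30, 0.43 and 0.05, with exact permutation adjusted p between 0.375 and 0.912. Without the 2 farthest libraries their r were 0.30, -0.47, 0.28 and -0.05. These p-values measure the association of genes within the same 9 libraries, which share each library's scaling. The permutations shuffled libraries across the groups, as if mice of different treatment were exchangeable, and were not limited to mice of the same group.

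**Figure D3:**
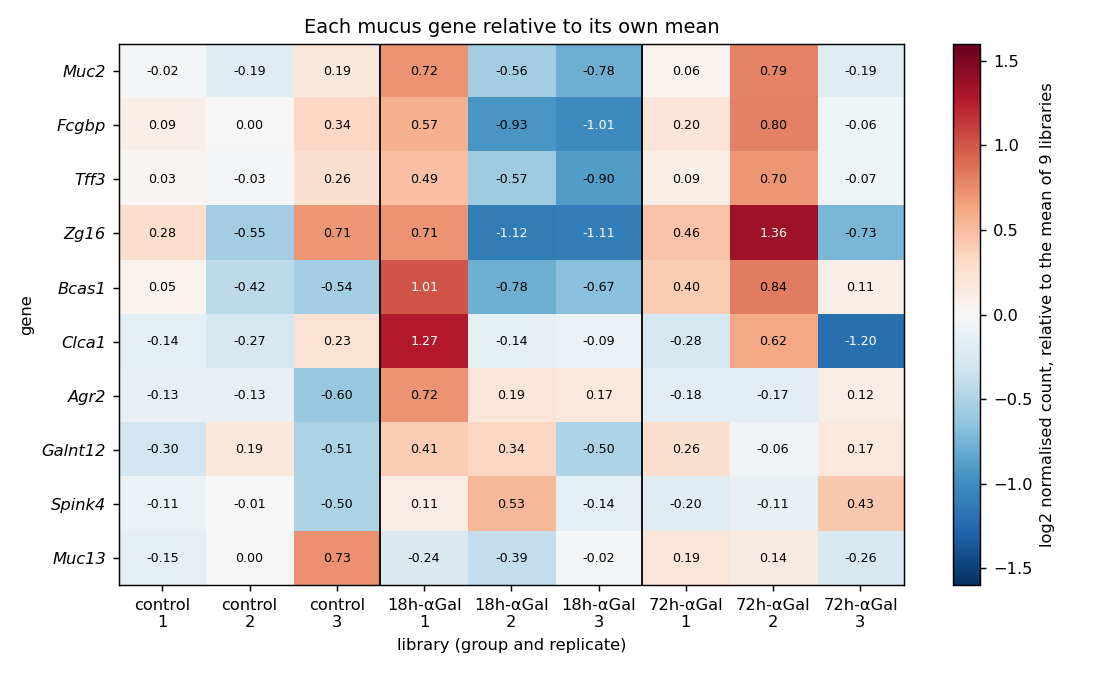
Each mucus gene's log2 normalised count in each of the 9 libraries relative to its own mean (colour and printed value), with genes in rows and libraries in columns grouped by treatment. The upper rows share high values in 18h-αGal replicate 1 (0.72 for Muc2) and 72h-αGal replicate 2 (0.79) and low values in 18h-αGal replicates 2 and 3 (-0.56 and -0.78), while Agr2 is above its mean in all 3 18h-αGal libraries.

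The spread between mice was wide for 6 of the genes in the 18h-αGal group. At 18 h the coefficients of variation of Muc2, Fcgbp, Clca1, Zg16, Tff3 and Bcas1 were 60.7%, 67.3%, 60.7%, 79.7%, 53.3% and 75.7%, whereas the median over 10733 genes was 14.4%. Each of these 6 values was higher than in at least 98.8% of those genes. In controls the same genes ranged from 10.8% to 40.7%, with a median over 10940 genes of 15.9%. Muc13 went the other way, with 34.5% in controls, 13.0% at 18 h and 16.2% at 72 h. At 72 h Clca1 (60.1%) and Zg16 (65.3%) lay above 99.5% and 99.6% of 10950 genes, and Agr2 was among the steadier members with 12.3% against a median of 11.7%. With 3 mice in a group each coefficient is itself imprecise.

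To name genes with a like course, every other gene with a mean of at least 100 normalised counts (10894 genes) was correlated with the mean of the members' standardised profiles over the 9 libraries. The 5 with the highest r were Zfp324 (0.96), Capn9 (0.93), Fer1l6 (0.90), Atp2c2 (0.87) and Sytl2 (0.87). Capn9, a calpain protease of the gut, had 199, 163 and 212 normalised counts in controls, 390, 121 and 95.2 in 18h-αGal mice and 359, 423 and 206 in 72h-αGal mice. Fer1l6, a member of the ferlin family, ranged from 577 to 2520 and Sytl2, a Rab27-binding protein of secretory granules, from 676 to 1712. Zfp324, a zinc finger gene, moved over a narrow range of 290 to 495, and Atp2c2, a Golgi calcium and manganese pump, from 222 to 364. All 5 had their lowest value in 18h-αGal replicate 2 or 3, where the members' mean profile was lowest too, as follows from how they were chosen.

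At 18 h after αGal, Agr2 rose and no other mucus gene passed the test. Agr2 went from 2220 ± 394 normalised counts (SD, n = 3) in controls to 3504 ± 796 at 18 h, a fold of 1.59 (95% interval 1.23 to 2.05), and it was higher in 3 of 3 mice than in any control. Its log2 fold change was 0.66 ± 0.17 (SE) with an edgeR adjusted p of 0.0359 over the 18933 genes tested, and a DESeq2 adjusted p of 0.0114. Of all genes tested 5.96% were called in this comparison, and 1 call among 10 members is no result about them as a group. Replicates of the groups did not overlap for 1 of the 10 members, Agr2, compared with 23.8% of all genes.

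The call of Agr2 was close to the threshold. Over 15 other ways of fitting, its edgeR or DESeq2 adjusted p ranged from 0.00361 to 0.142 and its log2 fold change from 0.45 to 0.76, always higher at 18 h, and it missed 0.05 in 9 of them. The edgeR adjusted p was 0.142 without 18h-αGal replicate 1, the mouse with the highest Agr2, and 0.0637 without 18h-αGal replicate 2. It was 0.0748, 0.0566 and 0.0655 without control replicates 1, 2 and 3, and 0.0580 without 72h-αGal replicate 1. With library totals in place of TMM factors it was 0.0981, and with only the 6 libraries compared it was 0.0781.

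The other 9 genes had edgeR adjusted p between 0.244 and 0.978 at 18 h, and their 95% intervals were wide. Among the mucus gel genes the log2 fold change was -0.03 for Muc2 (interval -1.10 to 1.03), -0.40 for Fcgbp (-1.51 to 0.71) and -0.27 for Tff3 (-1.15 to 0.60). Zg16 had -0.44 (-2.24 to 1.36), Clca1 0.57 (-0.81 to 1.95) and Bcas1 0.40 (-0.53 to 1.32). The intervals of Spink4 (0.39, -0.07 to 0.85), Galnt12 (0.32, -0.19 to 0.83) and Muc13 (-0.45, -0.89 to 0.00) were narrower. Of the 10 members 5 lay above and 5 below 0, with a median log2 fold change of 0.14 against -0.03 over all genes tested.

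For Muc2, Fcgbp, Tff3, Zg16, Clca1 and Bcas1 these values turned on 18h-αGal replicate 1. Without that library Fcgbp and Tff3 passed as lower at 18 h, with log2 fold changes of -1.12 (edgeR adjusted p = 0.0133) and -0.81 (0.0488), Muc2 and Zg16 moved to -0.66 and -1.34 without passing, and Bcas1 and Clca1 changed sign to -0.46 and -0.07. That library also lay nearer to the other groups on the first principal component of the most variable genes, at 23.0. The other 18h-αGal libraries lay at 36.8 and 37.7 and the 6 remaining ones at -23.4 to -3.70. What set that mouse apart was not tested. Leaving out 18h-αGal replicate 1 hardly moved Spink4 (0.42) or Muc13 (-0.44) and moved Galnt12 to 0.16. Muc13 moved to -0.14 when control replicate 3 was left out instead.

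**Figure D4:**
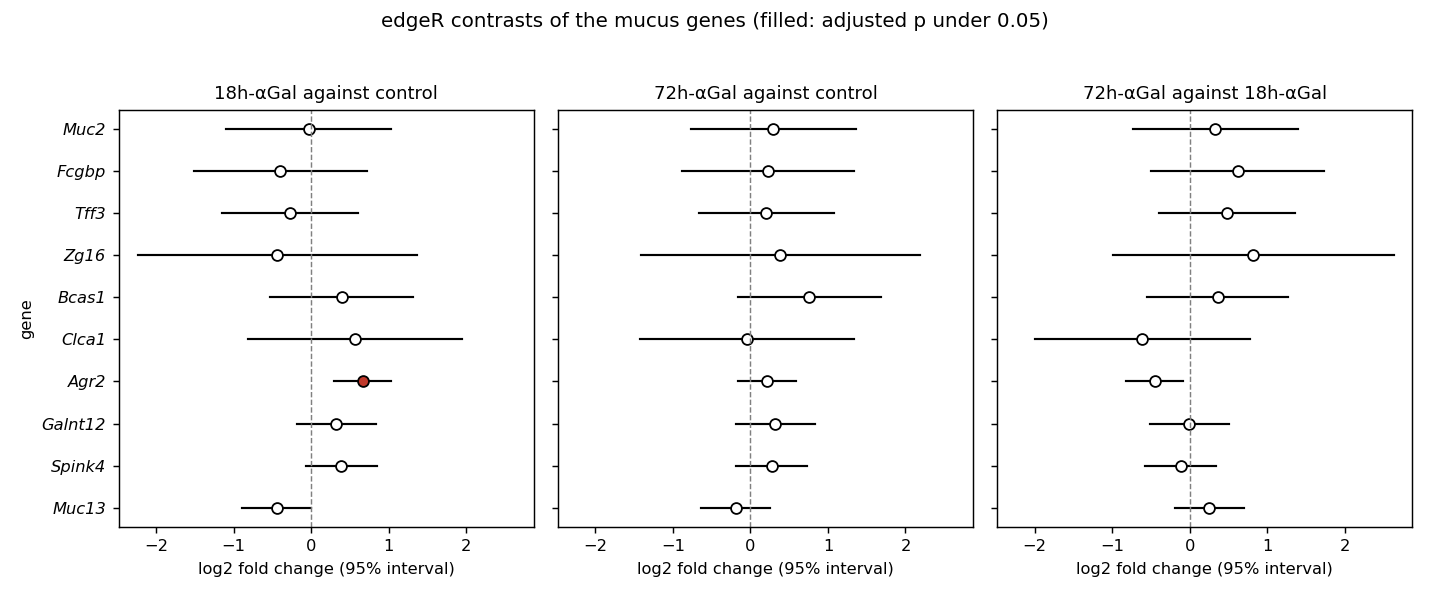
Log2 fold change and 95% interval from edgeR for each mucus gene in the 3 comparisons, with filled points for an adjusted p under 0.05 and a dashed line at 0. Agr2 at 18 h against control (0.66) is the only filled point, and the intervals of Muc2, Fcgbp, Tff3, Zg16, Bcas1 and Clca1 span 0 in each comparison.

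At 72 h, set against the same 3 controls, no mucus gene was called by edgeR, 0 had an unadjusted p under 0.05, and DESeq2 also called 0. Few genes of any kind were, since 0.0264% of all genes tested (5 genes, all lower) passed. Bcas1 had the largest difference among the members, 218 ± 55.8 normalised counts (SD, n = 3) against 128 ± 29.1, a log2 fold change of 0.76 (interval -0.17 to 1.68, edgeR adjusted p = 0.876). It was the 1 member of 10 whose replicates did not overlap, compared with 12.7% of all genes. Agr2 stood at 2554 ± 314 against 2220 ± 394 in controls, a log2 fold change of 0.21 (interval -0.16 to 0.58, edgeR adjusted p = 0.907).

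The gel genes Muc2 (0.29, interval -0.77 to 1.36), Fcgbp (0.22, -0.89 to 1.34), Tff3 (0.21, -0.67 to 1.08) and Zg16 (0.38, -1.42 to 2.18) had positive log2 fold changes at 72 h. Each of these 4 took a value below 0 when 72h-αGal replicate 2 was left out, to -0.04, -0.05, -0.06 and -0.23. Clca1 lay at -0.04 (-1.42 to 1.34), Spink4 at 0.27 (-0.19 to 0.73), Galnt12 at 0.32 (-0.19 to 0.83) and Muc13 at -0.19 (-0.64 to 0.26). Muc13 turned to 0.12 without control replicate 3. In all, 8 members lay above 0 and 2 below, with a median of 0.25 against 0.00 over all genes tested.

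Between the αGal groups, Agr2 had a log2 fold change of -0.45 at 72 h against 18 h (interval -0.82 to -0.08). Its replicates did not overlap, but the difference did not pass after adjustment (edgeR unadjusted p = 0.0203 from the fit over all genes, adjusted p = 0.119, DESeq2 adjusted p = 0.0828). No member was called by edgeR or by DESeq2, 1 member had an unadjusted p under 0.05, and 10.2% of all genes tested were called. Replicates did not overlap for 1 member of 10, against 32.8% of all genes. The log2 fold changes of the gel genes were 0.33 for Muc2 (-0.74 to 1.40), 0.62 for Fcgbp (-0.49 to 1.74), 0.48 for Tff3 (-0.39 to 1.35) and 0.82 for Zg16 (-0.98 to 2.63). Clca1 had -0.61 (-1.99 to 0.77), Bcas1 0.36 (-0.55 to 1.27), Muc13 0.25 (-0.19 to 0.70), Spink4 -0.12 (-0.58 to 0.34) and Galnt12 0.00 (-0.51 to 0.50).

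This comparison too depended on 18h-αGal replicate 1. Without it 4 members were called as higher at 72 h than at 18 h, Fcgbp (1.34, edgeR adjusted p = 0.00360), Tff3 (1.02, 0.0122), Muc2 (0.96, 0.0462) and Bcas1 (1.22, 0.0471). Zg16 moved from 0.82 to 1.73 without passing. Without 72h-αGal replicate 2, in contrast, Muc2 lay at -0.01 and Zg16 at 0.21.

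The members were read beside other genes of the mucus pathway, which were listed by role. Among 12 transcription factors of secretory and goblet cell fate, 0 were called by edgeR in any of the 3 comparisons, with 1, 0 and 3 at an unadjusted p under 0.05. In the same comparisons 5.96%, 0.0264% and 10.2% of all genes tested were called. Atoh1, the factor that sets the secretory fate, had 506, 442 and 495 normalised counts in controls, 736, 395 and 448 at 18 h and 511, 629 and 667 at 72 h. Spdef, which drives goblet cell maturation, had 513, 492 and 311, then 693, 383 and 317, then 527, 663 and 629. Both were highest within the 18h-αGal group in replicate 1, the mouse with high Muc2, and both had all 72h-αGal replicates above all controls, with log2 fold changes of 0.34 and 0.47 (edgeR adjusted p = 0.885 and 0.881), in a comparison where 12.7% of all genes did not overlap. Klf4, a factor of terminal goblet cell differentiation, also lay above all controls at 72 h (0.25, edgeR adjusted p = 0.873). The rest of the list, Gfi1, Foxa1, Foxa2, Foxa3, Creb3l1, Creb3l4, Xbp1, Elf3 and Cdx2, overlapped the controls at 72 h. Within the 18h-αGal group Klf4, Foxa1, Foxa3, Creb3l1 and Creb3l4 were highest in replicate 1 too. Gfi1, Foxa2, Xbp1, Elf3 and Cdx2 were not.

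In the O-glycosylation list, 30 of 33 genes were tested. At 18 h 5 were called higher and 1 lower, where 5.96% of all genes tested were called. The genes that rose included B3gnt3 (log2 fold change 0.85, edgeR adjusted p = 0.00546), which extends core glycans, and the initiating transferases Galnt3 (0.73, 0.00628) and Galnt1 (0.57, 0.0335). Cmas, which activates sialic acid, also rose (0.51, 0.0359), and B4galnt2, which adds a terminal N-acetylgalactosamine, fell by 0.48 (adjusted p = 0.0182). The calls of Galnt1 and Cmas were lost in 8 and 10 of the 15 other fits. At 72 h 0 of the 30 genes were called against control, where 0.0264% of all genes tested were called. Against 18 h, 5 of the 30 were called lower and 1 higher, in a comparison where 10.2% of all genes tested were called. B3gnt3 (-0.88), Galnt3 (-0.60), Galnt1 (-0.57) and C1galt1 (-0.40) were among those lower, and Gne (0.56), the entry enzyme of sialic acid synthesis, was the one that was higher. In this comparison the calls of B3gnt3, Galnt3, Galnt1, C1galt1 and Gne were lost in 0, 3, 6, 8 and 2 of the 15 other fits.

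The folding and secretion list held 25 genes, and 6 rose at 18 h while 0 fell, where 5.96% of all genes tested were called in either direction. They were Creld2 (log2 fold change 1.59, edgeR adjusted p = 0.000175), Sdf2l1 (1.51, 0.00172), Pdia4 (1.03, 0.000114), Manf (0.997, 0.000750), Pdia3 (0.93, 0.000854) and Pdia6 (0.83, 0.00269). In each of the 6, the 3 18h-αGal mice lay above all controls, and every call was kept in all 15 other fits. Other folding genes of the same list were not called at 18 h, among them Fkbp11 (0.80, edgeR adjusted p = 0.496), Dnajc10 (0.51, 0.0594), Pdia5 (0.28, 0.575) and Txndc5 (0.19, 0.583). None of the 6 was called at 72 h against control, where 0.0264% of all genes tested were called. All 6 were lower at 72 h than at 18 h, by log2 fold changes from -2.11 (Sdf2l1) to -0.87 (Pdia6). Kdelr2, the retrieval receptor of the endoplasmic reticulum (-0.55, edgeR adjusted p = 0.0100), was lower and Unc13b, a vesicle priming factor (0.60, 0.0107), higher at 72 h than at 18 h. The medians of this list and of the glycosylation list at 18 h were 0.30 and 0.14, against -0.03 over all genes. Both lists were chosen with earlier results of these data known, so their shares called cannot be read as an excess over all genes.

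Of 26 other goblet cell genes tested, 2 rose at 18 h (7.69%), near the 5.96% called over all genes tested. Guca2a, the guanylin precursor, had a log2 fold change of 0.74 (edgeR adjusted p = 0.0479, lost in 9 of 15 other fits), and AW112010, also known as an interferon-inducible transcript, had 1.56 (0.00280). Retnlb, the antibacterial resistin-like protein of goblet cells, had 1.17, 34.2 and 0 normalised counts in controls, 175, 113 and 91.1 at 18 h and 2.32, 0 and 9.57 at 72 h. It was separate from the controls at 18 h without passing (edgeR adjusted p = 0.141) and was called lower at 72 h than at 18 h (0.0447), a call lost in 8 of 15 other fits. Reg4, a lectin also expressed by enteroendocrine cells, had 3590, 3763 and 3495 in controls, 3327, 4980 and 6123 at 18 h and 1555, 1742 and 2005 at 72 h. It was lower at 72 h than at 18 h (-1.43, edgeR adjusted p = 0.000378), as were AW112010 (-1.23), Guca2a (-0.98) and Tspan13 (-0.50, lost in 8 of 15 other fits), while Smim14 was higher (0.60). Against control 0 of the 26 passed at 72 h, where 0.0264% of all genes tested were called. Of the 26, 3 had an unadjusted p under 0.05 in the edgeR fit, and their median was 0.23.

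Of the other mucins and trefoil factors, 5 of 14 could be tested, and 0 were called at 18 h or at 72 h against control. In these comparisons 5.96% and 0.0264% of all genes tested were called. Between the αGal groups the membrane mucin Muc3a was higher (0.73, edgeR adjusted p = 0.0108) and Muc17, another membrane mucin of enterocytes, lower at 72 h (-0.89, 0.0183), and these calls were lost in 2 and 4 of 15 other fits. The gastric mucin Muc5ac had at most 22.1 normalised counts in any library and the gastric trefoil factor Tff2 at most 9.0, apart from 122 in 72h-αGal replicate 3.

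Close relatives of the members were read separately. Of 12 tested, 11 had log2 fold changes below 0 at 18 h, with a median of -0.62, and 1 was called, Clca3a2 (-1.19 ± 0.27, edgeR adjusted p = 0.0212, lost in 3 of 15 other fits). Over all genes tested 5.96% were called at 18 h and 10.2% between the αGal groups. Clca3b, a relative of Clca1, had 41672, 46295 and 39051 normalised counts in controls, 29557, 21467 and 11321 at 18 h and 64307, 48631 and 71561 at 72 h. The 18h-αGal mice lay below and the 72h-αGal mice above all controls, but neither contrast with control passed (-1.02 and 0.55, edgeR adjusted p = 0.116 and 0.885). Between 18 h and 72 h Clca3a2 (2.01, adjusted p = 0.00112), Clca3b (1.57, 0.0211) and Clca3a1 (1.52, 0.0430) were called higher, the last lost in 8 of 15 other fits. Clca3a1 and Clca3a2 are close copies, and how the counting divided their shared reads is not given in the sources used here.

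**Figure D5:**
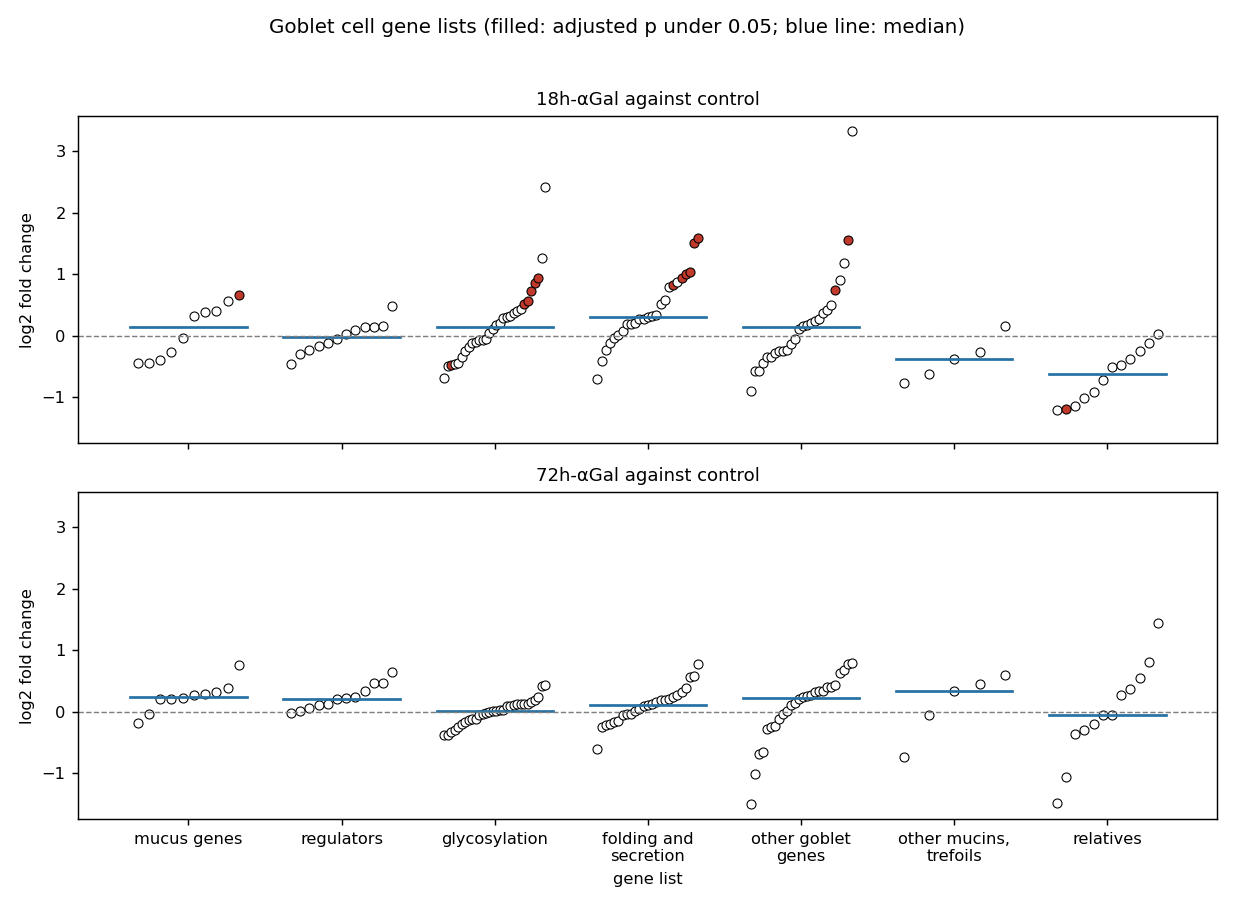
Log2 fold change of each tested gene in the 7 lists of mucus genes and related genes, measured in all crypt epithelial cells together. Values are at 18 h (upper panel) and 72 h (lower panel) against control, with filled points for an edgeR adjusted p under 0.05 and a blue line at each list's median. At 18 h 6 of 30 points are filled in the glycosylation list and 6 of 25 in the folding and secretion list. Over all genes tested 5.96% were called at 18 h and 0.0264% at 72 h, where no point is filled. The lists were chosen with earlier results of these data known.

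Markers of the other cells of the crypt were counted in the same way. Over all genes tested 5.96% were called at 18 h, 0.0264% at 72 h against control and 10.2% between the αGal groups. At 18 h 0 of 10 Paneth, 0 of 10 enterocyte, 0 of 7 epithelial, 0 of 5 leukocyte and 0 of 2 stromal or endothelial markers tested were called by edgeR, with 0, 1, 0, 0 and 0 at an unadjusted p under 0.05. Avil, of the tuft cell list (1 of 7 called, log2 fold change 1.21), Chga and Chgb, of the enteroendocrine list (2 of 8, 0.61 and 0.72), and the cyclin Ccna2 (1 of 7 proliferation markers, 0.64) rose, and Rnf43 fell by 1.01 (1 of 6 stem cell markers). The calls of Avil, Chga, Chgb, Ccna2 and Rnf43 were lost in 3, 9, 1, 7 and 0 of 15 other fits. At 72 h the enteroendocrine genes Tph1 (-1.32), Neurod1 (-1.19), Chga (-1.13) and Chgb (-1.06) were the only called genes among all these markers against control. Their calls were lost in 3, 6, 8 and 6 of 15 other fits, in that order. Between the αGal groups these 4 enteroendocrine genes (-1.78 to -1.56), the tuft cell genes Trpm5 (-1.17) and Avil (-1.08) and Ccna2 (-0.57) were lower at 72 h, and Rnf43 (1.26) and Krt18 (0.54) were higher. Of these, Trpm5, Avil, Ccna2 and Krt18 lost the call in 1, 4, 7 and 5 of 15 other fits, and the others in 0. The summed stem cell markers were 42242 to 81373 in controls, 12204 to 39473 at 18 h and 54466 to 84628 at 72 h, and the summed tuft cell markers were 2917 to 5170, 5174 to 10219 and 3128 to 5164. Within the 18h-αGal group replicate 1, high in Muc2, was highest in the stem cell markers and lowest in the tuft cell markers, and the part of these cells in the members' values was not tested. None of the 6 stem cell markers was at 0 in any library, whereas the tuft cell cytokine Il25 was at 0 in 8 of the 9.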

How the data were processed

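Bulk RNA-seq was made from sorted crypt epithelial cells of 9 mice, 3 per group, with a ribodepleted directional library kit and 100 bp reads. Per the labels' processing notes the authors aligned reads with HISAT2, counted them with featureCounts (Subread) and normalised them with DESeq2 1.42.0. The authors deposited raw counts per gene for each library and normalised counts, whose signal equals the raw counts divided by median-of-ratios size factors (checked on the table). The processing notes name GRCm38 and mm10 and the study's methods GRCm39. The files hold Ensembl identifiers only, of which 28480 of 29288 (98.4% of counts) matched GENCODE vM39 and gave the symbols, GRCm39 coordinates and exon lengths used here. The annotation release and the strand setting of the counting are not given in the sources used here.

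Raw counts were tested with edgeR 4.0.16 (R 4.3.3) by robust quasi-likelihood with TMM factors and filterByExpr, over all 9 libraries with group means, and p-values were adjusted over the 18933 genes kept (Benjamini-Hochberg, called at an adjusted p under 0.05). The fit was tested on simulated data. All 10 members passed the filter. Standard errors came from the F statistic and 95% intervals from the t quantile. Totals of 8887861 to 32722293 counts put 3 counts, taken as the floor, at 0.338 to 0.0917 CPM. Some of the values given above for Retnlb lie below this floor. No 2 libraries of the same group agreed within sampling noise. The alternatives were DESeq2 1.42.0, median-of-ratios factors, library totals only, no low-count filter, the replicate number as a block, only the 6 libraries compared, and each library left out in turn. The members and lists were chosen with earlier results of these data known. All members are named, and from the other lists (regulators, glycosylation, folding and secretion, other goblet cell genes, other mucins and trefoils, relatives, and the markers of other cells) every called gene, at most 8 per list, except 1 that is not reported here. Atoh1, Spdef, Klf4, Fkbp11, Dnajc10, Pdia5, Txndc5, Muc5ac, Tff2, Epcam, Ptprc and Pecam1 were added after their values were seen. For St6galnac2, which matched 2 identifiers, the one with more counts was used.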

Additional observations from a re-analysis of the deposited data

How the results depend on the processing

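Over the 15 alternatives the 10 genes gave 450 log2 fold changes in the 3 comparisons, of which 409 kept their direction and their side of the threshold, 9 (all Agr2 at 18 h against control) lost the call, 6 gained one and 26 changed sign. The number of mucus genes called at 18 h, 1 in the fit as reported, was 0 with library totals only, with only the 6 libraries compared and with the replicate block, and 0 to 2 with 1 library left out. Between 72 h and 18 h it was 0 to 4 with 1 library left out. Correlations of same-numbered deviations ran from -0.15 to 0.11, and those of differently numbered ones from -0.10 to 0.14. They gave no sign that the replicate numbers pair the samples, but cannot exclude it. The count over all genes at 18 h, 1128, was 1720 with DESeq2, 593 with only the 6 libraries compared and 432 to 1556 with 1 library left out. The 5 calls at 72 h against control became 31 with DESeq2, 13 without the low-count filter, 1 with the replicate block and 0 to 20 with 1 library left out, and the 1936 between 72 h and 18 h became 831 to 2593.

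The sign changes came from leaving out 1 library, except for Galnt12 between 72 h and 18 h, a value near 0 that was 0.069 with library totals only, 0.00064 without the low-count filter, 0.0013 with only the 6 libraries compared, 0.056 with the replicate block and -0.23 to 0.16 with 1 library left out. At 18 h leaving out 1 library gave -0.66 to 0.23 for Muc2, -0.065 to 0.81 for Clca1 and -0.46 to 0.70 for Bcas1. At 72 h against control it gave -0.041 to 0.48 for Muc2, -0.055 to 0.39 for Fcgbp, -0.60 to 0.30 for Clca1, -0.23 to 0.76 for Zg16, -0.057 to 0.35 for Tff3 and -0.35 to 0.12 for Muc13. Between 72 h and 18 h it gave -0.0063 to 0.96 for Muc2, -1.17 to 0.027 for Clca1 and -0.35 to 0.085 for Spink4. Beyond the libraries named, the cause was not tested. Where a left-out library leaves 2 mice in a group, the spread is taken from all groups. Every member was counted in every library. The intervals given with each fold change rest on a spread estimated over all 9 libraries, so the group outside a comparison also shapes its interval.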
